A study of Rattus norvegicus with 25 samples.

Results

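Adenosine deaminase (Ada) and 8 further genes of adenosine production, breakdown, sensing and transport were followed in rat tooth and periodontal ligament after replantation. The 9 genes, Ada, Adk, Pnp, Nt5e, Entpd1, Adora2a, Adora2b, Slc29a1 and Dpp4, were picked by symbol from the 16881 symbols of the count files, and all 9 were found as 1 entry each. They were chosen because Ada had the largest called rise between the days in IR and ranked first in the interaction of drying and day. Values of Ada are therefore a description here, with no test. In the comparison that chose it, Ada had an adjusted p of 0.0229 by edgeR, inside the threshold of 0.05, and the nearest member outside was Pnp, at 0.124.

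First molars of the upper jaw were taken out of Sprague-Dawley rats, left dry and put back. Drying lasted 60 min in the delayed group (DR) and 5 min in the immediate group (IR), and tissue was collected 7 or 3 days after replantation. The groups were DR day 7, IR day 7, DR day 3 and IR day 3, with 6 libraries each, and NT, a control with 1 library. All carry the age postnatal day 21, no genotype is given, and the labels say neither whether libraries came from separate animals nor how much tissue each held. The p-values below thus measure the spread between libraries.

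Extracellular ATP, released by stressed and dying cells, is cut to AMP by CD39 (Entpd1) and then to adenosine by CD73 (Nt5e). Adenosine acts on receptors such as those encoded by Adora2a and Adora2b, enters cells through the transporter ENT1 (Slc29a1), and is either returned to AMP by adenosine kinase (Adk) or deaminated to inosine by Ada, after which Pnp splits inosine. CD26 (Dpp4) is a surface peptidase whose human form binds ADA. Signalling through Adora2a is known for restraining immune cells, and in mice Ada is known to be abundant in the keratinised epithelium of the upper digestive tract.

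Levels are given as CPM, read counts scaled to library size with TMM factors over all 25 libraries. The kit reads transcript ends, so a CPM does not grow with transcript length. Deposited totals ran from 5.04 M to 8.81 M counts in replanted libraries and reached 8.55 M in NT. The marker lists show that the tissue varied. Ligament and fibroblast markers, 9 of 9 listed and none at 0, took 3.84% to 5.84% of counts in DR day 7, 4.15% to 9.48% in IR day 7, 0.37% to 3.06% in DR day 3, 0.101% to 4.38% in IR day 3 and 14.9% in NT. Of 11 markers of mineral-forming tooth cells, Klk4 was at 0 in every group. Gland markers were high in 6 libraries, picked from an earlier description of these data and called gland-high below. The lipid-secreting gland list took 1.61% to 2.25% in DR day 3 replicates 1 to 3 and 2.67% in IR day 3 replicate 6, and the nasal and salivary list took 19.5% and 22.3% in IR day 3 replicates 3 and 4, against at most 8.58% in any other library. Fewer cells of a type and less RNA per cell cannot be told apart in such bulk libraries.

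Promoters of Ada and Pnp are shown because they are the members that act in sequence on adenosine and inosine and because their patterns over libraries differed. Each spans 250 bases before to 50 after the start in RefSeq's GRCr8 table, which is not a build named for the counts, and reads 5′ to 3′ along the gene. Ada lies at chr3:172842234-172842533 on the minus strand and Pnp at chr15:26643897-26644196 on the plus strand. Capitals mark GGGCGG, the GC box, and TATAAA, the TATA box, each searched on both strands.
Ada: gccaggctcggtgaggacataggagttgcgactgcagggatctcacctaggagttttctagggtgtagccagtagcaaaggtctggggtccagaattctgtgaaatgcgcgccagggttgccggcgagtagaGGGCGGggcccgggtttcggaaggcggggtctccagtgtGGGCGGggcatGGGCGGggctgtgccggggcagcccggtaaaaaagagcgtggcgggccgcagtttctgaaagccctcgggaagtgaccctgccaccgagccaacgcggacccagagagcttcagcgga
Pnp: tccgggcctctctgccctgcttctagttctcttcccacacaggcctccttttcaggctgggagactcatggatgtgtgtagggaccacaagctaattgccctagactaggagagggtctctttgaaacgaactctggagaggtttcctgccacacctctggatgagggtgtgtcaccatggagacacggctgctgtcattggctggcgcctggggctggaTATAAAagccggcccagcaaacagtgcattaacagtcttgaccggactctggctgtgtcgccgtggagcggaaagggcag
The Ada window, 64.3% G and C, held 3 GC boxes and no TATAAA. The Pnp window, 56.7% G and C, held 1 TATAAA and no GC box. Among 33469 promoter windows of this length, 33.1% held a GC box, 8.97% held at least 3, and 14.2% held TATAAA. Of the 9 members, 8 matched the table, all but Adora2a. GC boxes numbered 4 in Adk, 4 in Adora2b, 3 in Nt5e, 2 in Slc29a1 and 0 in Entpd1 and Dpp4, while TGANTCA, an AP-1 motif held by 7.33% of windows, was in none of the 8.

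Ada varied widely between libraries and between groups. In DR day 7 the 6 libraries, replicates 1 to 6, had 18.9, 24.7, 10.3, 21.1, 56.2 and 28.4 CPM. In IR day 7 they had 23.2, 198.5, 228, 341, 19.0 and 106 CPM. The 6 IR libraries of day 7 thus split between replicates 1 and 5, which lay within the DR day 7 range, and replicates 2, 3, 4 and 6, which lay above it. In DR day 3 Ada had 80.2, 6.35, 6.93, 66.6, 42.1 and 39.3 CPM. In IR day 3 it had 13.7, 12.8, 5.95, 1.72, 6.31 and 5.71 CPM. Every IR day 7 library exceeded every IR day 3 library, 36 of 36 pairs, and the other 3 comparisons between groups had overlapping ranges. Of the 11492 genes tested, 0.679% did not overlap in that direction and 0.383% in the opposite one, and nothing is read from this because the comparison chose Ada. In NT, Ada had 111 CPM from 933 counts (95% exact Poisson interval 104 to 118 CPM, counting error only), above 21 and below 3 of the 24 replanted libraries.

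**Figure D1:**
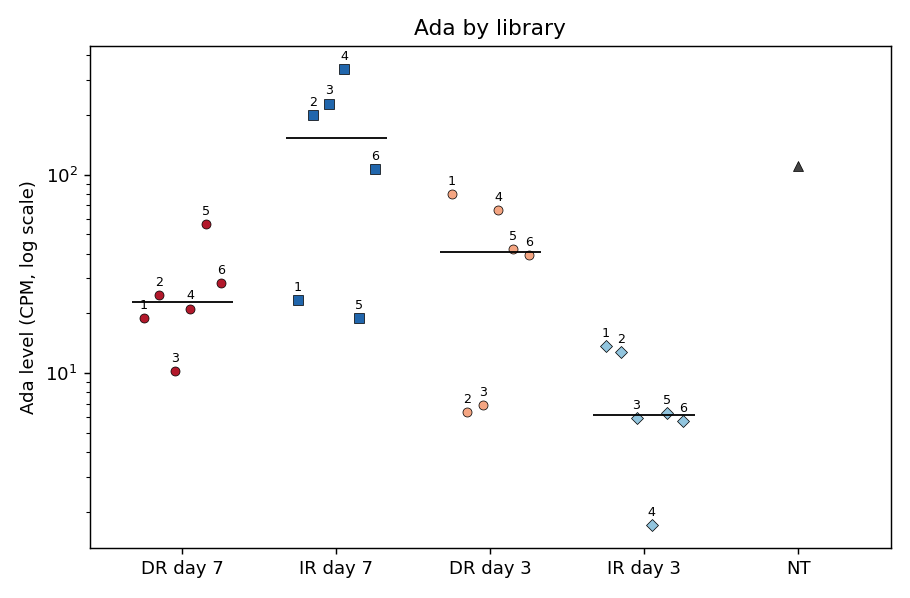
Ada in each library (y axis, CPM, log scale) by group (x axis), with replicate numbers beside the points and a line at each group's median. Medians at day 7 were 22.9 CPM in DR and 152 CPM in IR, those at day 3 were 40.7 CPM in DR and 6.13 CPM in IR, and the NT library had 111 CPM.

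On the log2 CPM scale Ada at day 7 averaged 4.57 ± 0.79 in DR and 6.57 ± 1.76 in IR, and at day 3 it averaged 4.78 ± 1.59 in DR and 2.74 ± 1.01 in IR (SD, n = 6 each). From the top, the order of levels was IR day 7, DR day 3, DR day 7 and IR day 3. The step between DR day 3 and DR day 7, 0.22, was below their pooled SD of 1.26. The step between IR day 7 and DR day 3 was 1.79 against a pooled SD of 1.68, and that between DR day 7 and IR day 3 was 1.82 against 0.907. Between the highest and the lowest library of a group the level differed 5.47-fold in DR and 17.9-fold in IR at day 7, and 12.6-fold in DR and 7.94-fold in IR at day 3. As fitted, Ada was lower in DR than in IR at day 7 by a log2 fold change of -2.52 (SE 0.70) and higher in DR at day 3, at 2.37 (SE 0.705). Its day 7 against day 3 difference was -0.61 (SE 0.667) in DR and 4.28 (SE 0.762) in IR. The low DR day 3 libraries of Ada, replicates 2 and 3, and the low IR day 3 libraries 3, 4 and 6 were among the 6 gland-high ones. IR day 3 replicate 5 was not, and had 6.31 CPM of Ada. Replicate 1 of DR day 3, also one of them, had the highest Ada of its group. Without those 6 the IR difference between the days was 3.81 and Ada was not called, where 0.00845% of all genes were. The part of gland tissue in these values was not tested.

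Adk, the kinase that competes with Ada for adenosine, was far steadier. It had 26.8 to 46.9 CPM (median 34.1) in DR day 7, 26.6 to 46.1 (38.3) in IR day 7, 34.0 to 63.2 (47.4) in DR day 3, 25.7 to 82.9 (33.5) in IR day 3 and 38.4 in NT. All groups overlapped, and the highest library exceeded the lowest of its group by at most 3.23-fold. The ratio of Ada to Adk within a library therefore followed Ada. At day 7 its median was 0.749 in DR and 4.32 in IR, at day 3 it was 1.02 in DR and 0.206 in IR, and NT had 2.89. Adk correlated with the lipid-secreting gland list over the 24 replanted libraries (r = 0.751 after subtracting group means), and that list's part in the Adk values was not tested.

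Pnp, the enzyme after Ada, had 108 to 204.5 CPM (median 172) in DR day 7, 109 to 275 (199.8) in IR day 7, 67.6 to 211 (105.5) in DR day 3, 81.8 to 159 (99.8) in IR day 3 and 156 in NT. In 34 of 36 pairs an IR day 7 library exceeded an IR day 3 library, but the ranges overlapped. The log2 fold change between the days in IR was 0.82 (SE 0.265, edgeR adjusted p = 0.124), and in DR it was 0.49 (SE 0.264, adjusted p = 0.269). Without the 6 gland-high libraries these values were 0.59 and 0.05. Between DR and IR, Pnp differed by -0.28 (SE 0.263) at day 7 and by 0.05 (SE 0.263) at day 3.

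The ectoenzymes that make adenosine passed no edgeR test. Nt5e (CD73) had 19.5 to 34.5 CPM (median 25.4) in DR day 7, 21.7 to 42.4 (28.6) in IR day 7, 4.76 to 27.1 (13.3) in DR day 3, 6.49 to 32.4 (22.6) in IR day 3 and 24 in NT. In DR the day 7 libraries exceeded the day 3 libraries in 31 of 36 pairs. The log2 fold change was 0.83 (SE 0.353, adjusted p = 0.171 by edgeR). It was 0.31 without the gland-high libraries. Entpd1 (CD39) had 7.79 to 28.4 CPM (median 17.9) in DR day 7, 10.04 to 45.2 (28.0) in IR day 7, 3.38 to 31.3 (7.61) in DR day 3, 2.95 to 34.2 (6.98) in IR day 3 and 9.03 in NT. Day 3 libraries of Entpd1 spread widely, 9.26-fold in DR and 11.6-fold in IR. The difference between the days in IR, 1.14 (SE 0.596, edgeR adjusted p = 0.279), was 0.45 without the gland-high libraries.

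Both receptors had few counts, at most 105 in a library. Adora2a had 3.33 to 11.3 CPM (median 6.51) in DR day 7, 1.16 to 13.9 (7.56) in IR day 7, 0.397 to 4.84 (2.27) in DR day 3, 0 to 7.40 (0.748) in IR day 3 and 1.66 in NT, which is 14 counts. IR day 3 replicate 4 had 0 counts, and 3 counts there would be 0.737 CPM. Adora2b had lower medians at day 7 than at day 3. It had 2.15 to 6.26 CPM (median 5.07) in DR day 7, 3.82 to 6.74 (5.14) in IR day 7, 5.70 to 11.5 (8.01) in DR day 3, 1.51 to 9.29 (7.27) in IR day 3 and 0.951 in NT. In DR, only 2 of 36 pairs had the day 7 library higher. Neither receptor passed edgeR's test. limma-voom with sample quality weights called Adora2a and Adora2b between the days in DR, where it called 34.1% of all genes, and Adora2a in IR, where it called 38.9%. The edgeR log2 fold changes between the days were 1.49 (SE 0.754, adjusted p = 0.244) in DR and 1.60 (SE 0.754, adjusted p = 0.235) in IR for Adora2a, and -0.83 (SE 0.331, adjusted p = 0.147) in DR and -0.35 (SE 0.33, adjusted p = 0.547) in IR for Adora2b. Without the gland-high libraries Adora2a was at 0.75 in DR and 0.80 in IR, while Adora2b was at -0.79 and -0.26.

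Slc29a1 (ENT1) had 20.4 to 30.3 CPM (median 26.3) in DR day 7, 17.9 to 32.8 (29.1) in IR day 7, 2.64 to 30.9 (15.3) in DR day 3, 4.33 to 78.7 (15.8) in IR day 3 and 41.5 in NT. Day 7 libraries spread 1.49-fold in DR and 1.84-fold in IR, and day 3 libraries spread 11.7-fold in DR and 18.2-fold in IR. The fitted DR against IR difference at day 3, -0.88 (SE 0.492, adjusted p = 0.983 by edgeR), was -0.25 without the IR library of 78.7 CPM, replicate 2. Dpp4 (CD26) had 4.28 to 13.1 CPM (median 8.97) in DR day 7, 3.29 to 11.9 (9.28) in IR day 7, 3.79 to 13.6 (4.80) in DR day 3, 0 to 19.5 (8.18) in IR day 3 and 18.5 in NT. The 0 was IR day 3 replicate 6, where 3 counts would be 0.59 CPM, and all Dpp4 group ranges overlapped. Of the 8 members other than Ada, 0 had ranges that did not overlap in any comparison. Over all genes, non-overlap with DR higher and DR lower was found in 0.0435% and 0.113% at day 7 and in 0.0087% and 0% at day 3, and with day 7 of DR higher and lower in 1.76% and 0.87%.

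**Figure D2:**
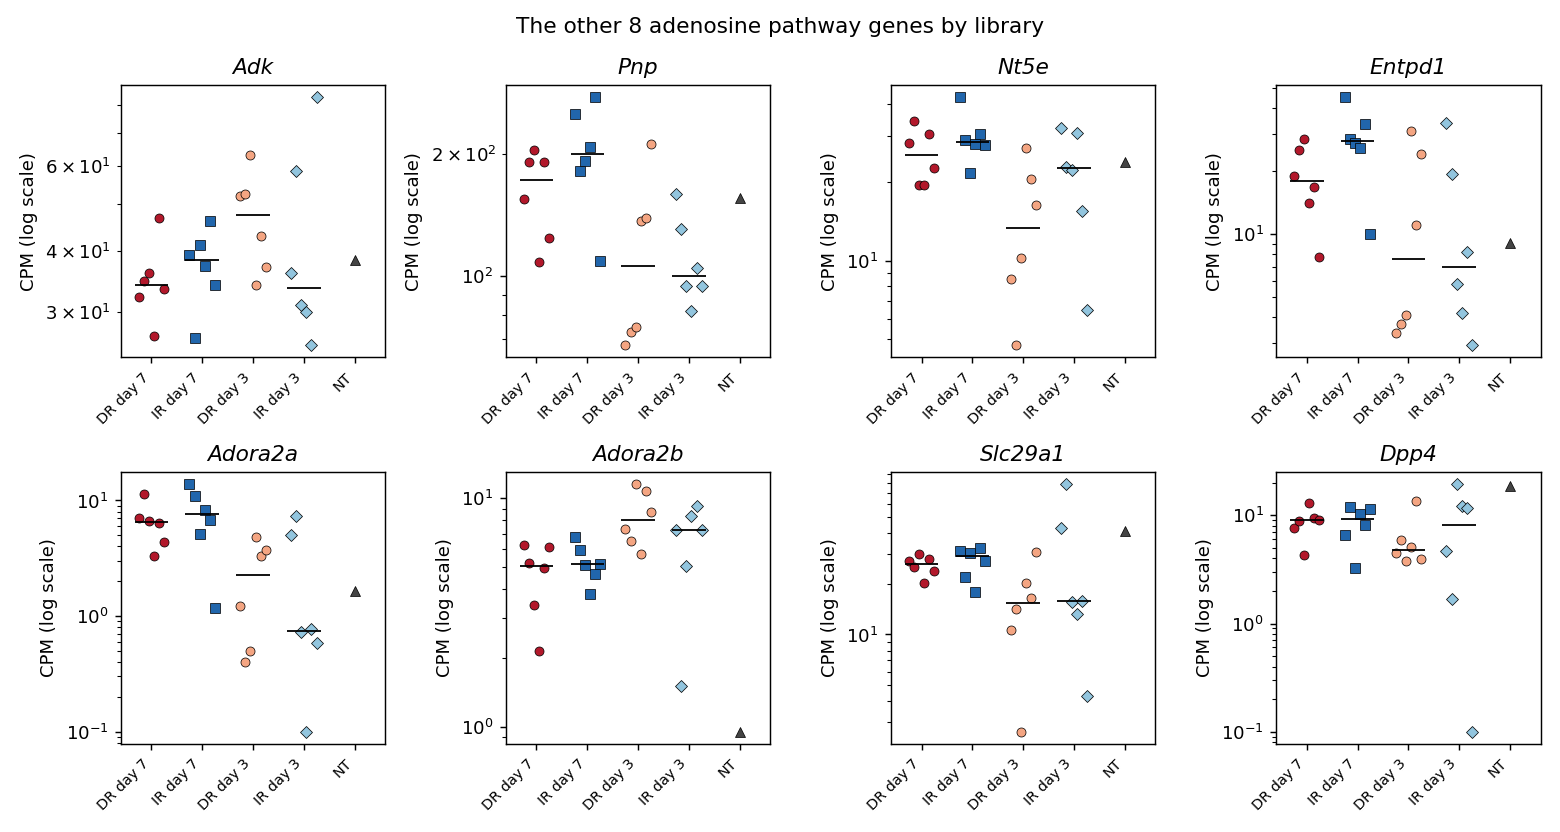
Levels of the 8 other genes in each library (y axis, CPM, log scale, values of 0 drawn at 0.1) by group (x axis), with a line at each group's median. NT lay below all 24 replanted libraries for Adora2b, at 0.951 CPM, and above 23 of 24 for Dpp4, at 18.5 CPM.

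By edgeR, drying time gave no call among the members. In DR against IR at day 7, 0 of 9 members passed edgeR's quasi-likelihood test at an adjusted p under 0.05, beside 0% of the 11492 genes tested. At day 3, 0 of 9 passed, beside 0% of all genes. Of the 8 members other than Ada, 0 had an unadjusted p under 0.05 in either comparison. DESeq2 called 0 members in both, beside 0.0261% of all genes at day 7 and 0% at day 3. limma-voom with sample quality weights called 0 at day 7, beside 0% of all genes, and 2, Adk and Nt5e, at day 3, beside 13.3%. Over the 8 members other than Ada the median log2 fold change was -0.15 at day 7 and -0.02 at day 3, beside 0.00 and -0.04 over all genes. With SEs of 0.237 to 0.753, differences of that size in single members were not detectable.

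Time gave few calls by edgeR. In DR, 0 of 9 members passed, beside 0.0087% of all genes, and Nt5e and Adora2b had an unadjusted p under 0.05. DESeq2 called 0 there, beside 9.26% of all genes, and limma-voom with quality weights called 7, beside 34.1%. In IR, 1 of 9 passed, Ada, which was higher, beside 0.139% of all genes (0.104% higher and 0.0348% lower), and in the interaction 0 of 9 passed by edgeR, beside 0% of all genes. Of the 8 members other than Ada, 2 had an unadjusted p under 0.05 in IR, Pnp and Adora2a, and 0 in the interaction. In IR, DESeq2 called 2 members, Ada and Pnp, beside 6.51% of all genes, and limma-voom called 4, Ada, Pnp, Entpd1 and Adora2a, beside 38.9%. In the interaction DESeq2 called 1, Ada, beside 0.0957% of all genes, and limma-voom called 0, beside 6.5%. Nothing is read from the counts for IR and the interaction, because these comparisons chose Ada. Of the 8 other members, the medians were 0.53 in DR and 0.22 in IR, against 0.00 and -0.09 over all genes. The 2 time comparisons do not share libraries with each other, but each shares its groups with the drying comparisons.

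**Figure D3:**
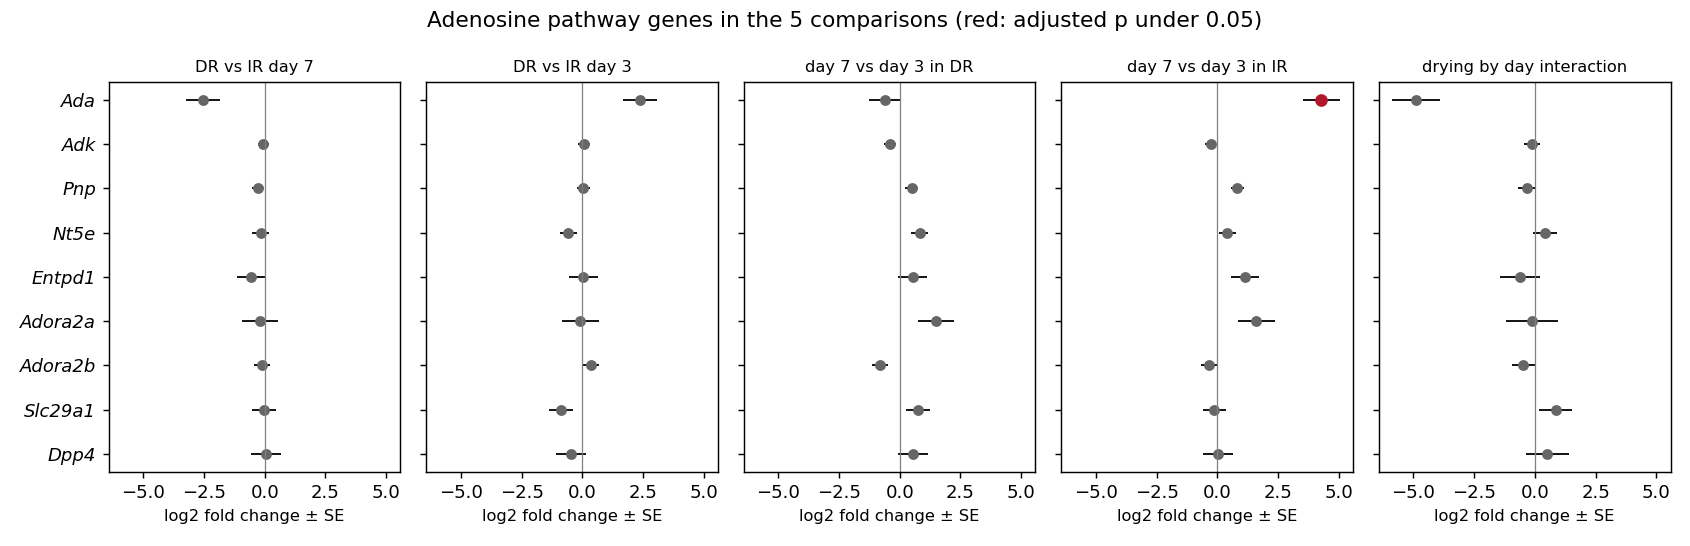
Fitted log2 fold changes (x axis, points) with SEs (bars) of the 9 genes (y axis) in the 5 comparisons, each the first-named group over the second, and DR over IR at day 7 minus that at day 3 for the interaction. Ada lay farthest from 0 in 4 of the panels, and the red point is Ada between the days in IR, at 4.28.

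A wider purine list of 57 genes, of which 54 were in the files and 39 were tested, gave 0 calls by edgeR in each of the 5 comparisons. The number with an unadjusted p under 0.05 was 0 for drying at day 7, 2 for drying at day 3, 8 for time in DR, 7 for time in IR and 0 for the interaction. DESeq2 called 0, 0, 4, 2 and 0 in the same order, beside 0.0261%, 0%, 9.26%, 6.51% and 0.0957% of all genes. limma-voom with quality weights called 0, 7, 12, 18 and 2, beside 0%, 13.3%, 34.1%, 38.9% and 6.5%. Nt5c, a nucleotidase inside cells, came nearest in time, at 0.84 (SE 0.202, edgeR adjusted p = 0.0802) in DR and 0.76 (SE 0.202, adjusted p = 0.0984) in IR. P2rx5, an ATP-gated channel, was at -3.19 (SE 0.841, adjusted p = 0.0867) in DR over time and at 2.21 (SE 0.804, edgeR adjusted p = 0.983) in DR against IR at day 3. In DR day 3, 8.67 CPM was its median, against 0.682 in IR day 3. P2ry14, a receptor for UDP-sugars, was at -0.98 (SE 0.354, adjusted p = 0.983) in that comparison. Ahcyl1, a relative of the enzyme that frees adenosine from S-adenosylhomocysteine, was at -0.34 (SE 0.113, edgeR adjusted p = 0.126) between the days in IR. At day 7, Ahcyl2 was at 0.56 (SE 0.374) and Ahcyl1 at 0.15 (SE 0.113) in DR against IR. For the interaction, Ahcyl2 was at 1.08 (SE 0.528) and Ampd1, the AMP deaminase of muscle, at -3.82 (SE 2.08).

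Against NT no test was possible, since it was 1 library, and its age at collection is not given. With 5 CPM added to each level, 1 of 9 members lay past 2-fold in DR day 7, Ada, at a log2 ratio of -1.88, beside 6.23% of genes higher and 3.79% lower. In IR day 7 it was Entpd1, at 1.25, beside 4.93% higher and 2.78% lower. In DR day 3 they were Adora2b at 1.17, Ada at -1.36, Slc29a1 at -1.16 and Dpp4 at -1.08, beside 10.2% higher and 6.29% lower. In IR day 3 it was Ada, at -3.19, beside 9.75% higher and 5.07% lower. Adora2b was above NT in 24 of 24 replanted libraries, as were 5.7% of genes, but NT held 8 counts of it (interval 0.41 to 1.87 CPM), and 23 libraries lay above that interval. With 1 CPM added in place of 5, the members past 2-fold numbered 4 in DR and 4 in IR at day 7, and 4 in DR and 3 in IR at day 3. The share of all genes past 2-fold in either direction was then 19.9% in DR and 15.8% in IR at day 7, and 27.5% in DR and 25.6% in IR at day 3. Dpp4 lay below NT in 23 of 24 libraries and Slc29a1 in 22, while 9.44% of genes lay below NT in all 24 and no member did. NT also differed in its markers, with erythroid genes at 6.99% of counts against at most 3.63% in a replanted library, and with ribosomal RNA entries at 2.93% against 9.81% to 34.1%. Mineral-forming cell genes were at 1.82% in NT against at most 1.11% in a replanted library, and neutrophil genes at 1.01% against at most 0.892%. The part of any of these in the ratios was not tested.

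Genes whose level tracked Ada over the 24 replanted libraries were ranked by Pearson r of log2 CPM, as a description. The first 5 of 11491 were Bpifa5 (r = 0.817), Col14a1 (0.782), Blmh (0.782), Krt4 (0.764) and Itm2a (0.753). After group means had been subtracted the first 5 were Bpifa5 (0.843), Krt4 (0.75), Blmh (0.742), Ky (0.718) and Tpsb2 (0.703). Bpifa5 belongs to a family of secreted proteins of mouth and airways, Krt4 is a keratin of lining epithelium, Ky is a muscle protein and Tpsb2 is a mast cell tryptase. Without the 2 libraries farthest from the median of Ada, Bpifa5 was at 0.77 and Krt4 at 0.677. Bpifa5 had 0 counts in 2 libraries of IR day 7, 1 of DR day 3 and 3 of IR day 3. Krt4 had 0 counts in 1 library of DR day 3 and 2 of IR day 3. Ky had 0 counts in 2 libraries of DR day 7, 1 of IR day 7 and 2 of IR day 3. How far their r values rest on libraries at 0 was not tested. Krt4 in IR day 7, replicates 1 to 6, had 3.30, 14.8, 33.7, 23.7, 1.55 and 2.43 CPM, and Bpifa5 had 0, 25.1, 55.2, 47.0, 0 and 7.50 CPM. Both were highest in replicates 2, 3 and 4, the highest for Ada as well.

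The stratified epithelium list as a whole followed Ada less closely. It had 22 of 28 genes in the files, with Ivl at 0 in every group, and took 0.207% to 0.386% of counts in DR day 7, 0.122% to 0.573% in IR day 7, 0.0756% to 0.194% in DR day 3, 0.0184% to 0.865% in IR day 3 and 0.242% in NT. Over its 21 tested genes r with Ada ran from -0.0944 to 0.764, with a median of 0.413, and Krt5, a basal keratin, was at 0.413. Krt13, the partner of Krt4 in lining epithelium, was at 0.729, and Sprr3, a cornified envelope protein, at 0.659. These were the list's highest after Krt4, while the lowest were Krt15 at -0.0944 and Dsc3 at 0.0113. Sprr3 had 0 counts in 2 libraries of DR day 7, 2 of DR day 3 and 3 of IR day 3, and Krt13 in 1 of IR day 3. The list's share of counts had r = 0.441 with Ada, and 0.192 after subtracting group means. Higher values came from the endothelium (0.612 and 0.394), ligament and fibroblast (0.548 and 0.359) and macrophage lists (0.533 and 0.361), among others. Before subtraction, lower ones came from the erythroid (0.438), neutrophil (0.426) and both gland lists (-0.111 and -0.271). IR day 3 replicate 1 had 184.6 CPM of Krt13 and 101 CPM of Krt5 with 13.7 CPM of Ada, the highest Ada of its group. NT had 111 CPM of Ada with 0.594 CPM of Bpifa5 and 7.49 CPM of Krt4. Skeletal muscle genes, 10 of 10 listed and none at 0, took 0.00317% to 0.0349% of counts in DR day 7, 0.00304% to 0.237% in IR day 7, 0.00468% to 0.897% in DR day 3, 0.00124% to 0.311% in IR day 3 and 0.0849% in NT. In IR day 7 replicates 1 to 6 they took 0.00304%, 0.202%, 0.141%, 0.237%, 0.00797% and 0.0613%. Replicates 1 and 5, the low ones for Ada, were also low here. In DR day 3 replicates 1 to 6 muscle genes took 0.598%, 0.264%, 0.129%, 0.1015%, 0.897% and 0.00468%. There replicates 2 and 3, the lowest for Ada, were not the lowest. Replicate 6, the lowest for muscle, had 39.3 CPM of Ada. Replicate 1, the highest for Ada, was among the higher ones for muscle. Over the 24 replanted libraries the muscle list had r = 0.497 with Ada. After subtracting group means it was 0.527, the highest of the marker lists. The part of epithelium, of muscle and of the other cell types in the Ada values was not tested.

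**Figure D4:**
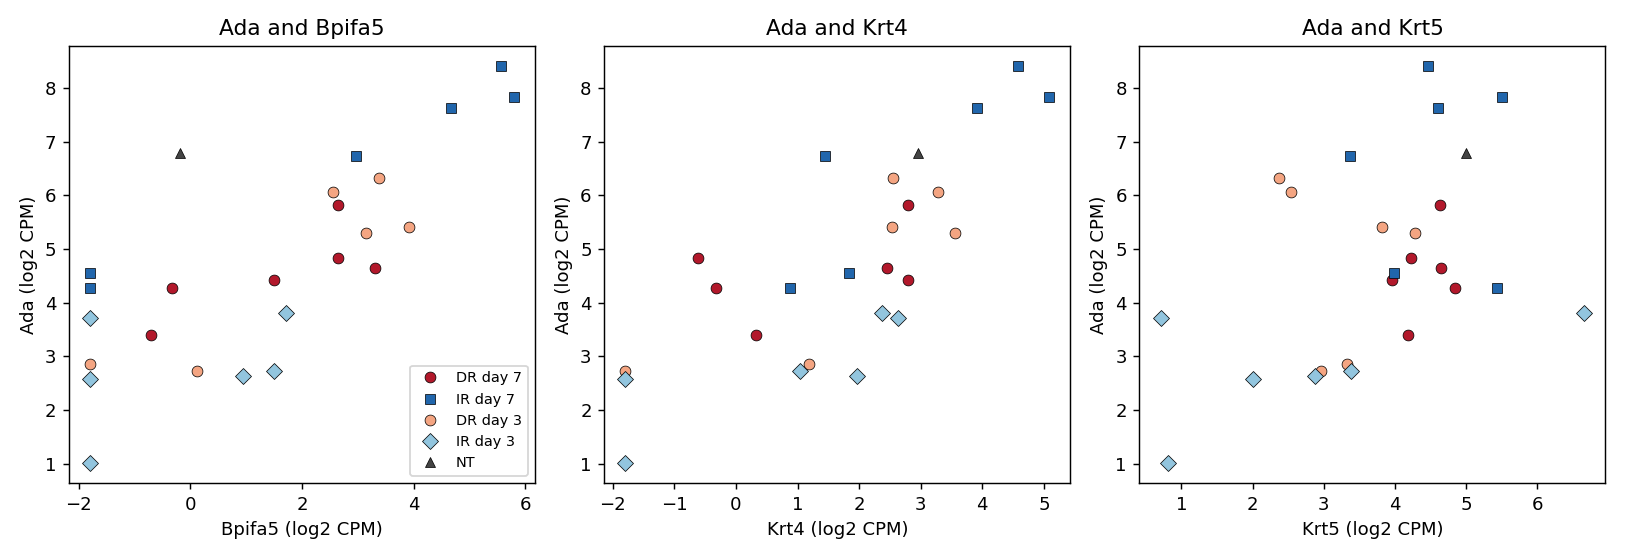
Ada (y axis, log2 CPM) against Bpifa5, Krt4 and Krt5 (x axes, log2 CPM), 1 point per library. Over the 24 replanted libraries r was 0.817 for Bpifa5, 0.764 for Krt4 and 0.413 for Krt5, and the NT library had high Ada with little Bpifa5.

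Among the members, Pnp, Entpd1 and Adora2a correlated closely, and Ada less so. Pnp and Entpd1 had r = 0.912 over the 24 replanted libraries, Entpd1 and Adora2a 0.883, and Pnp and Adora2a 0.858, and after subtracting group means these were 0.872, 0.858 and 0.795. Ada had r = 0.441 with Pnp, 0.471 with Entpd1 and 0.573 with Adora2a. Adk and Dpp4 ran opposite, at -0.792. IR day 3 replicate 6 had 0 counts of Dpp4 and the highest Adk of all libraries, 82.9 CPM. Replicate 2 of that group had 10 counts of Dpp4 and 58.35 CPM of Adk. How far the r of Adk and Dpp4 rests on these libraries was not tested. Within a library all genes share its depth and tissue make-up, and the r values between members carry no test. The macrophage list, 11 of 11 genes and none at 0, took 0.185% to 0.56% of counts in DR day 7, 0.191% to 0.525% in IR day 7, 0.0364% to 0.35% in DR day 3, 0.0143% to 0.315% in IR day 3 and 0.23% in NT. After subtracting group means its r was 0.905 with Entpd1, 0.819 with Adora2a, 0.812 with Slc29a1, 0.804 with Pnp and 0.702 with Nt5e, against 0.361 with Ada. Other lists came near or above these values by the same measure. Neutrophil genes gave 0.884 with Entpd1, 0.767 with Slc29a1, 0.751 with Pnp, 0.744 with Adora2a and 0.691 with Nt5e. With Slc29a1, mineral-forming cell genes gave 0.908 and ligament and fibroblast genes 0.862. Endothelium genes gave 0.734 with Adora2a. The macrophage list was thus not alone in tracking these members. The part of these cell types in the members' differences was not tested.

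**Figure D5:**
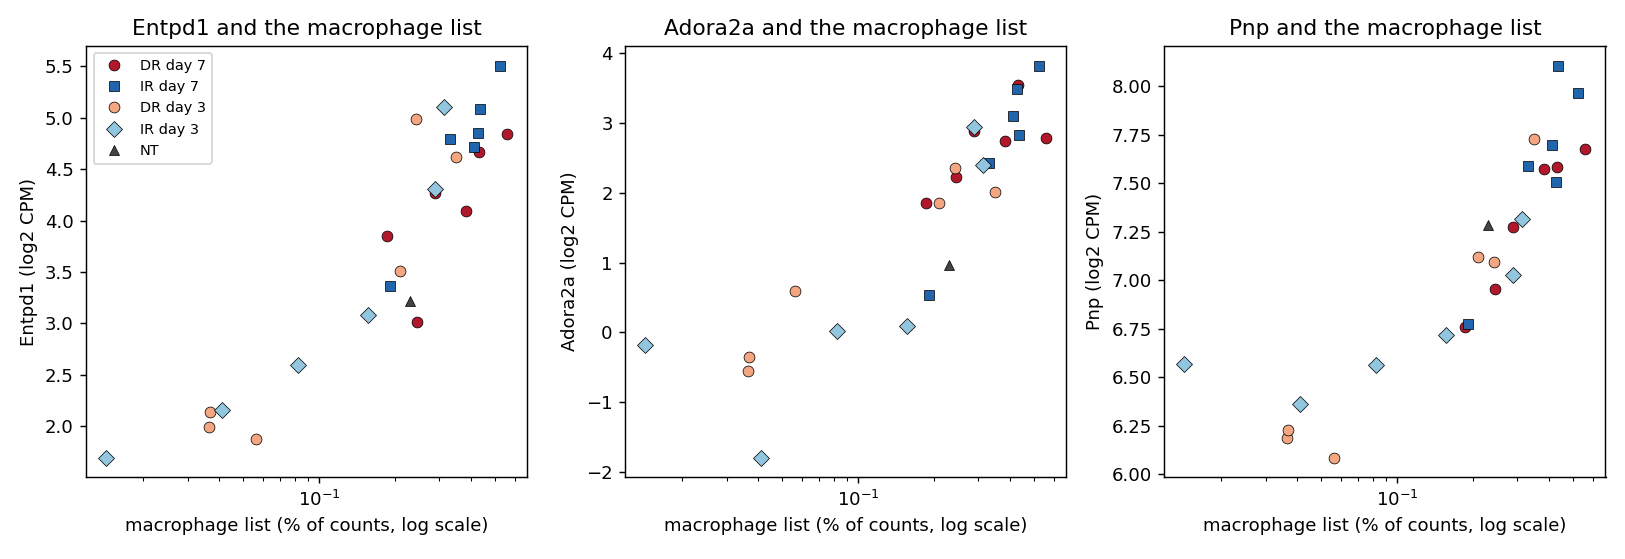
Entpd1, Adora2a and Pnp (y axes, log2 CPM) against the macrophage list's share of counts (x axes, percent, log scale), 1 point per library. Day 3 libraries reach down to 0.0143% of counts and have the lowest levels of Entpd1 and Adora2a.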

How the data were processed

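Per the labels' protocols, RNA was extracted with Trizol and libraries were made with a Lexogen QuantSeq kit. The authors deposited raw, whole-number counts for each gene symbol in 1 file for every library. Bowtie2, edgeR, mm10 and rn6 are named, per the submitters' processing notes. Roles, annotation, strand and filters were not stated there. The spans of Adk and Ap3m1, and of Nt5e and Snx14, overlap in the GRCr8 gene table. Whether reads of one gene of a pair were counted for the other is not known. For 149 repeated symbols, no member among them, the entry with the highest total was kept, which left out at most 1.11% of a library's counts. The 24 replanted libraries were fitted with edgeR 4.0.16 (quasi-likelihood, TMM, filterByExpr, robust, 4 group means, 20 residual degrees of freedom). Benjamini-Hochberg adjustment ran over 11492 genes, and 9 of 9 members passed the low-count filter. The fit was tested on simulated data. Log2 CPM used a prior count of 2, and correlations used all tested genes. Alternatives included DESeq2 1.42.0 and limma 3.58.1 in R 4.3.3. Counts carry no molecular identifiers, so intervals cover counting error only. Same-numbered DR and IR libraries of day 7 deviated together (r 0.214 to 0.721, 6 of 6 over 0.1). Only 3 of the 6 were most alike with their own number, so pairing of DR day 7 with IR day 7 was not established. In no other pair of groups, by the labels' numbers, was every r over 0.1. Named genes were all members, from the wider list the called genes or else the 2 of smallest p per comparison, and the 5 most like Ada by each of 2 measures. Krt5, Krt13, Sprr3, Krt15 and Dsc3, outside this rule, were shown after seeing their values. The members, lists and tests were chosen with earlier results of these data known.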

Additional observations from a re-analysis of the deposited data

Results flagged for a closer look

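Within groups of 6 libraries, a library was marked where its gap to the nearest other, divided by the range of the group on the log2 CPM scale, passed Dixon's 95% critical value. Chance marks about 1 in 20 groups. Entpd1 in IR day 7 replicate 6 was the lowest, at 10.04 CPM, with a ratio of 0.628. That library also had the lowest macrophage share of its group, 0.191%. It was lowest too for neutrophil (0.220%), endothelium (0.0288%) and stratified epithelium genes (0.122%), and highest for nasal and salivary gland genes (8.58%). Adora2b in IR day 3 replicate 2 was the lowest, at 1.51 CPM, with a ratio of 0.65. Dpp4 in DR day 3 replicate 5 was the highest, at 13.6 CPM, with a ratio of 0.652.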

How the results depend on the processing

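Under the alternatives, 167 of the counts of members kept within 1.5 times of the reported count and 19 did not. A count of 0 that stayed at 0 was taken as kept. The reported edgeR count was 0 in every comparison but time in IR, so this tally says little of how steady the calls are. For drying at day 3, limma-voom with sample quality weights called 2 members, beside 13.3% of all genes, and for time in DR it called 7, beside 34.1%. For time in IR, edgeR called 1 (Ada), DESeq2 called 2 (Ada, Pnp), beside 6.51% of all genes, and limma-voom called 4, beside 38.9%. Without the 6 gland-high libraries 0 were called, beside 0.00845% of all genes. That fit has fewer libraries in both day 3 groups, so it also has less power. Leaving out 1 library gave 0 to 1, beside 0% to 3.46% of all genes. Ada lost its call without IR day 3 replicate 3, 4 or 6 or IR day 7 replicate 2, 3 or 4. The same fits called 0.043% of all genes without IR day 7 replicate 3 and 0% without each of the others, so nearly all calls were lost. Over all 24 omissions Ada had log2 fold changes of 3.86 to 4.53 and edgeR adjusted p of 0.0114 to 0.0824. With the replicate number as a block in the fit of all libraries, where numbers may pair only day 7, 0 members were called, beside 0% of all genes. Ada was then at 4.301 with an adjusted p of 0.101. Day 7 numbers run 1 to 6 in the labels but 2 to 7 in the file names, so which libraries share a number across days is uncertain, and with it this value and the pairing check between days. The day 7 fit with the block changed no call of a member. DESeq2 called 1 member in the interaction, Ada, beside 0.0957% of all genes. Again nothing is read from the counts for IR and the interaction, because these comparisons chose Ada. Adk between the days in IR, -0.28 as reported, was 0.25 under limma-voom and ran from -0.37 to 0.003 (0.002995 without IR day 3 replicate 6) when 1 library was left out. The causes of these changes were not tested. Against NT, adding 1 CPM in place of 5 put 4 members past 2-fold at day 7 in DR, 4 in IR at that day and 3 in IR at day 3, with 19.9%, 15.8% and 25.6% of all genes. Leaving out 1 library gave 1 to 2 in IR day 7 (2 without replicate 6), 1 to 2 in IR day 3 (2 without replicate 2 or 3), 3 to 4 in DR day 3 and 1 in DR day 7. The number of counts limits the receptors and Dpp4, at no more than 19.5 CPM.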
